A study of Mus musculus with 20 samples.

Results

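The 10 genes described here encode the parts of the MHC class II pathway, by which macrophages, dendritic cells and B cells show peptides to CD4+ T cells, together with Ciita, a regulator of class II genes. They were picked by symbol, as 10 of the 23329 gene symbols of a count table of mouse glioma macrophages: H2-Aa, H2-Ab1, H2-Eb1, Cd74, Ciita, H2-DMa, H2-DMb1, H2-DMb2, H2-Oa and H2-Ob. All 10 passed the filter on low counts. Polyadenylated RNA was sequenced from sorted myeloid cells of C57BL/6 mice, giving 20 libraries in 6 groups. GEMM tumours, from a genetically engineered mouse model, arose after DF1 cells (a chicken fibroblast line) carrying the avian vectors RCAS-PDGFB-HA and RCAS shP53 were injected into the brain of Flt3:Cre Rosa26:mTmG mice aged 5 to 6 weeks. In these mice descendants of Flt3-expressing progenitors turn from TdTomato to GFP, and the sort took Cd45+ Cd11b+ Ly6c- Ly6g- cells as microglia (MG, GFP- TdTomato+) or bone-marrow-derived macrophages (BMDM, GFP+ TdTomato-). GL261 tumours, of a transplantable mouse glioma line, were sorted into the same 2 populations, but the sources used here do not give how these tumours were made or whether their hosts carried the reporter. Each model gave MG and BMDM of 3 tumours. Normal MG came from brains without tumour (3 libraries) and the last group was Ly6C high blood monocytes (5 libraries). Ages of the animals outside the GEMM are not given either.

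Class II molecules are pairs of an alpha and a beta chain. In mice these are I-A (H2-Aa with H2-Ab1) and I-E, whose beta chain is H2-Eb1. The invariant chain Cd74 fills the peptide groove of new pairs and takes them to endosomes, where proteases cut it down to a short peptide called CLIP. H2-DM, a pair of H2-DMa with H2-DMb1 or H2-DMb2, then exchanges CLIP for peptides, and H2-O, a pair of H2-Oa and H2-Ob known best from B cells, inhibits H2-DM. Ciita is the coactivator on which transcription of the I-A and I-E chain genes depends. It does not bind DNA itself but sits on RFX and NF-Y proteins bound at promoters, and interferon-gamma induces it in macrophages and microglia. Resting microglia are known for low class II levels.

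The promoters show what the genes share apart from the counts. RefSeq promoter windows of 300 bases (250 before to 50 after the start, GRCm38.p6) were listed for 7 of the 10 genes, in 8 windows, H2-DMa having a pair of windows. The letters GNAAC followed, after 24 to 30 bases, by ATTGG were searched on either strand: ATTGG is the reverse complement of CCAAT, the core that NF-Y binds (the Y box), and GNAAC stands for the core of the X box that RFX binds. This arrangement stood in 5 of the 8 windows (H2-Aa, H2-Eb1, H2-DMb1, H2-Oa and H2-Ob) and in 391 of 32851 windows of all genes (1.19%). CCAAT or ATTGG by itself stood in 37.4% of all windows. The range of gaps was set after these sequences had been seen, so the shares are a description. The windows of H2-DMb2 and H2-DMa did not hold the arrangement. Below, capitals mark the GNAAC and ATTGG letters, in the direction of transcription, for 2 chain genes and the inhibitor genes, because their levels, described next, were unlike:
H2-Aa: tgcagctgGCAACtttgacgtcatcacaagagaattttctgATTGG
H2-Eb1: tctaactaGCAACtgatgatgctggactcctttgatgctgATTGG
H2-Oa: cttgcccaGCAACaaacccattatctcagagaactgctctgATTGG
H2-Ob: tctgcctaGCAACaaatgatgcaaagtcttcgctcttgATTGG
They lie at chr17:34287867-34287912 (minus strand, H2-Aa) and, on the plus strand, at chr17:34305768-34305812 (H2-Eb1), chr17:34092295-34092340 (H2-Oa) and chr17:34238810-34238852 (H2-Ob). The gap between the marked letters was 28 bases in H2-Aa and H2-Oa, 27 in H2-Eb1 and 25 in H2-Ob. The search itself required these letters and a gap of 24 to 30 bases, so the likeness of the printed windows was set by it.

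Library totals were 5077787 to 7801073 counts in monocytes and 18113450 to 36297826 in the other groups, which gives rare messages their largest counting error in monocytes. Summed microglia markers (8 genes) reached 33083 to 36974 CPM (counts scaled to the library total) in normal MG, while GEMM MG held 12740 to 19653 and GL261 MG 2858 to 9887, against 3033 to 5646 in GEMM BMDM, 707 to 1762 in GL261 BMDM and 802 to 1200.1 in monocytes. Tumour 80769 of GL261 stood apart: its MG library held the lowest microglia sum of any MG, and its monocyte marker sum, most of it Chi3l3, was 6996 CPM in MG and 26194 CPM in BMDM, against 625 to 945 CPM in the other 4 GL261 libraries. Xist was at 144.7 to 617 CPM in every monocyte library and at most 2.73 CPM elsewhere, while Ddx3y, on the Y chromosome, was at 46.3 CPM or more outside monocytes, so sex and cell source cannot be told apart in comparisons with monocytes. The ribosomal precursor Rn45s took 13.5% and 14.3% of monocyte libraries 64820 and 64821 and at most 1.62% of the other 3. Neutrophil markers (6 genes) summed to 1938 and 1693 CPM in 64820 and 64821 and to 9745 to 12130 CPM in the other 3. In bulk RNA, fewer cells of a type and less RNA per cell cannot be told apart.

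The classical chains were lowest in normal MG and highest in tumour BMDM. H2-Aa, the I-A alpha chain (chromosome 17, 34282744 to 34287823, GRCm38, minus strand), was at 5.40, 5.49 and 15.5 CPM in normal MG. In GEMM tumours it was at 423, 881 and 491 CPM in MG and at 4183, 8605 and 8063 CPM in BMDM (tumours 68702, BB30101 and BB30105, the order used throughout). GL261 tumours (80766, 80767, 80769) gave 2149.5, 1976 and 1346 CPM in MG and 7407, 5701 and 3437 CPM in BMDM. The 5 monocyte libraries lay between 874 and 1404 CPM. In rank order, GEMM BMDM (6951 ± 2412, mean ± SD) and GL261 BMDM (5515 ± 1991) overlapped, GL261 BMDM did not overlap GL261 MG (1824 ± 423), GL261 MG overlapped monocytes (1158 ± 198), monocytes overlapped GEMM MG (598 ± 247), and GEMM MG did not overlap normal MG (8.80 ± 5.81).

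H2-Ab1, the I-A beta chain (chromosome 17, 34257689 to 34269419, plus strand), followed the same order except at the top. Its levels were 17.3, 18.4 and 31.6 CPM in normal MG. GEMM MG held 595, 1210.2 and 736 CPM, whereas GL261 MG held 3567, 2884 and 2087 CPM. BMDM held 6233, 12614 and 12000.2 CPM in GEMM and 16718, 12360.3 and 6481 CPM in GL261. These BMDM ranges overlapped, and all MG libraries lay below both. Monocytes were at 1008 to 1591 CPM (mean 1335 ± 239.6). Per kilobase of merged exons, which allows genes to be compared, H2-Ab1 stood 3.01 to 4.95 times as high as H2-Aa in normal MG, 2.03 to 3.34 times in tumour libraries and 1.58 to 1.81 times in monocytes.

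H2-Eb1, the I-E beta chain (chromosome 17, 34305867 to 34316674, plus strand), had normal MG levels of 3.78, 3.22 and 8.43 CPM. GEMM libraries held 222, 519.8 and 242 CPM in MG and 2907, 5867 and 5434 CPM in BMDM. GL261 libraries held 1257, 1141 and 761 CPM in MG and 4769, 3883 and 2305 CPM in BMDM, and monocytes 286 to 536. Its level per kilobase was 0.598 to 0.616 of that of H2-Ab1 in GEMM BMDM and 0.377 to 0.470 in GL261 BMDM, ranges that did not overlap. The I-E alpha gene, annotated as the polymorphic pseudogene H2-Ea-ps (C57BL/6 mice are known to lack I-E at the surface), reached at most 0.821 CPM in any library. H2-Eb1 message was thus present at 2305 CPM or more in BMDM beside almost no counts for the partner chain.

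Cd74, the invariant chain (chromosome 18, 60803848 to 60812652, plus strand), was, per kilobase, the most abundant of the 10 genes in every tumour and monocyte library, but not in all normal MG libraries. Normal MG held 74.0, 49.9 and 132 CPM, GEMM MG 1794, 3295 and 2021, and GL261 MG 8953, 8259.9 and 5222. BMDM held 14409, 26062 and 24496 CPM in GEMM and 26022, 21329 and 11147 in GL261, and monocytes 4273 to 8278. The groups came in the order of H2-Aa, with BMDM of the models overlapping, GL261 MG overlapping monocytes, and the steps from monocytes to GEMM MG and to normal MG free of overlap. Per kilobase, Cd74 exceeded H2-Aa 19.2 to 31.0 times in normal MG, 10.6 to 14.8 times in monocytes, 8.46 to 9.59 times in tumour MG and 6.85 to 8.46 times in tumour BMDM, so its lead over the chain was largest in normal MG and smallest in BMDM.

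Ciita (chromosome 16, 10480059 to 10528418, plus strand) was at 0.658, 0.378 and 0.854 CPM in normal MG, where the lowest library held 10 counts. GEMM MG held 5.72, 18.02 and 8.31 CPM and GL261 MG 53.4, 31.6 and 26.2. GEMM BMDM held 139.9, 279 and 255 CPM, GL261 BMDM 203, 91.8 and 87.5, and monocytes 78.8 to 127 (mean 96.1 ± 20.4). In contrast to the chains, monocytes stood above both tumour MG groups without overlap, and overlapped GL261 BMDM. Ciita has several promoters, which counts per gene cannot tell apart.

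H2-DMa (chromosome 17, 34119541 to 34139101) and H2-DMb1 (34153072 to 34160230), the alpha and beta chains of the exchange factor, were present in all groups, normal MG included, and varied far less. H2-DMa was at 132, 132 and 149 CPM in normal MG. GEMM MG held 217, 299 and 278 CPM, whereas GL261 MG held 417, 305 and 209 CPM. BMDM held 395, 689.6 and 577 CPM in GEMM and 552, 405 and 382 in GL261, and monocytes 208 to 283. H2-DMb1 was at 85.9, 94.7 and 97.4 CPM in normal MG. GEMM MG held 141, 179 and 163 CPM, whereas GL261 MG held 375, 273 and 221 CPM. Its BMDM levels were 389.6, 672 and 629.9 CPM in GEMM and 1153, 675 and 460.1 in GL261, above every MG library, and monocytes lay at 173 to 228.

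H2-DMb2 (34143307 to 34151555), the second beta chain gene, was lower. It was at 6.61 to 8.72 CPM in normal MG. GEMM MG held 6.16, 20.3 and 8.63 CPM, whereas GL261 MG held 21.8, 12.7 and 11.8 CPM. BMDM held 79.4, 214 and 158 CPM in GEMM and 84.6, 36.4 and 76.7 in GL261, and monocytes ranged from 7.88 to 47.3. The copy took 16.9% to 24.1% of the counts of the pair in GEMM BMDM, 5.12% to 14.3% in GL261 BMDM and 4.18% to 10.2% in tumour MG. Aligned GENCODE transcripts of the copies were identical at 94.6% of paired bases, with a longest shared run of 221 bases, so the authors' counting can split their reads and the share of each copy is uncertain.

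The inhibitor genes had another order of groups. H2-Oa (34092340 to 34095234, plus strand) was at 22.2, 19.6 and 24.3 CPM in normal MG, where the classical chains were lowest. GEMM MG held 23.5, 31.5 and 41.9 CPM and GL261 MG 52.6, 54.7 and 12.4, the low value being tumour 80769. GEMM BMDM held 64.4, 148 and 122 CPM, above every other library, while GL261 BMDM held 19.6, 12.04 and 20.6. Monocytes had the lowest mean, with libraries from 0.788 to 14.4 CPM. The antisense gene BC051537 overlaps H2-Oa along its whole length, and without a known strand setting their reads cannot be told apart, but BC051537 itself reached at most 0.998 CPM.

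H2-Ob (34238903 to 34254414, plus strand) was at 45.8, 52.6 and 53.7 CPM in normal MG. GEMM MG held 47.9, 35.3 and 43.8 CPM and GL261 MG 29.9, 26.4 and 6.21, again lowest in tumour 80769. GEMM BMDM held 61.3, 126 and 108 CPM and GL261 BMDM 16.8, 8.01 and 12.7. The 5 monocyte libraries spread from 10.4 to 81.5 CPM. Summed B cell markers (8 genes, none at 0 in all monocyte libraries) followed the same order as H2-Ob, and that of H2-Oa except between 64818 and 64821: libraries 64817, 64819, 64818, 64821 and 64820 held 780, 317, 255, 214 and 88.2 CPM of them beside 81.5, 33.5, 22.6, 18.8 and 10.4 CPM of H2-Ob and 14.4, 5.83, 3.66, 4.13 and 0.788 CPM of H2-Oa. The part of B cells in the monocyte values was not tested. In normal MG the B cell sum was 33.3 to 53.6 CPM, most of it Cd79b (33.7 CPM) and Cd22 (10.9 CPM), while 3 of the 8 genes had 0 counts in all libraries, Pax5 and Blk among them. Its part in the H2-Oa and H2-Ob levels of normal MG was not tested.

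**Figure D1:**
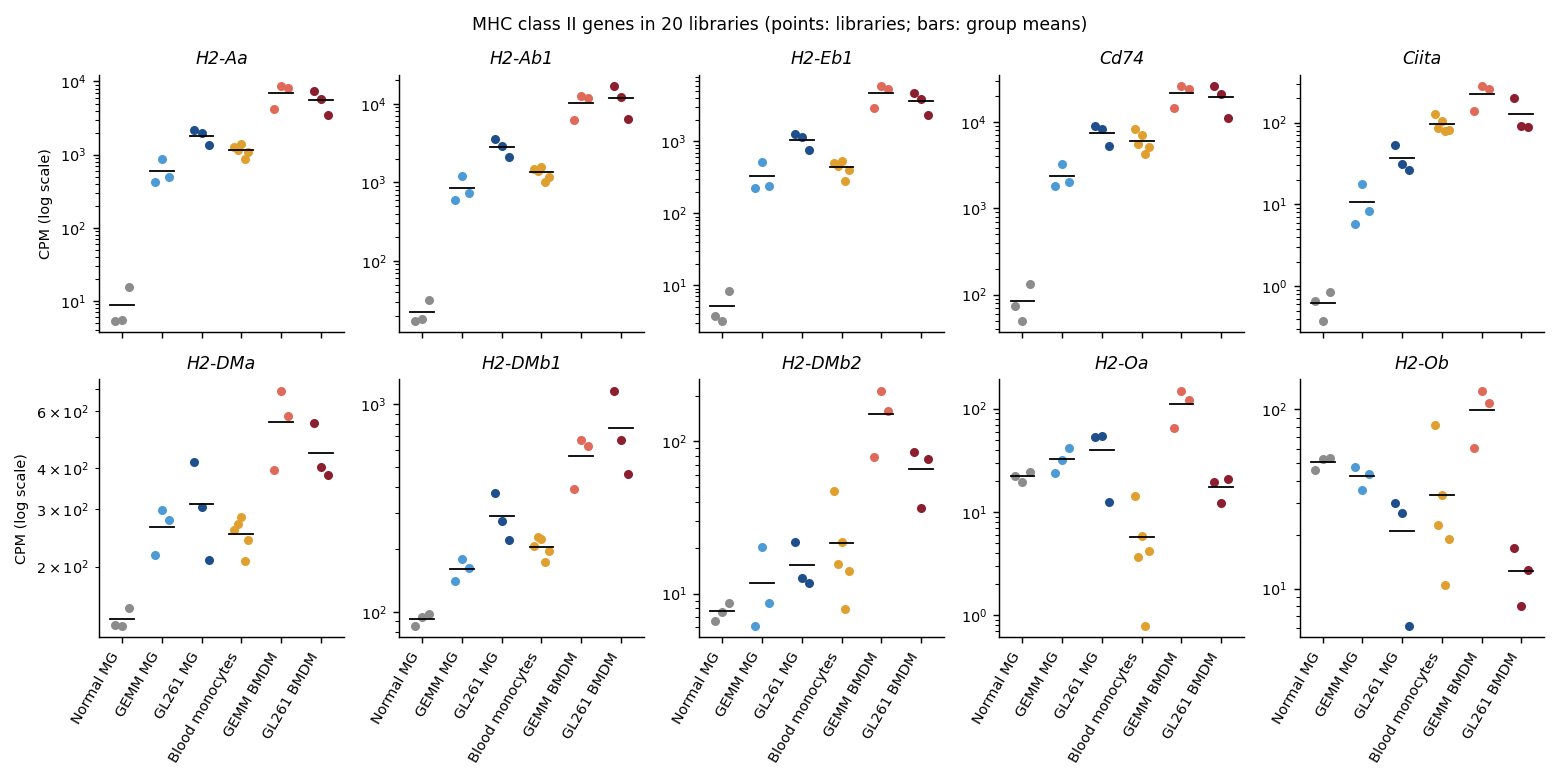
CPM of the 10 genes (one panel each, log scale) in 20 libraries of 6 groups; points are libraries and bars group means. The chains and Cd74 climb from at most 132 CPM in normal MG to 2305 CPM or more in BMDM, whereas H2-Oa and H2-Ob are highest in GEMM BMDM and low in GL261 BMDM.

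Together the 10 genes took 0.0433% ± 0.00766 of all counts in normal MG and 0.959% ± 0.216 in monocytes. In tumours the share was 0.467% ± 0.160 for GEMM MG, 1.39% ± 0.360 for GL261 MG, 4.53% ± 1.44 for GEMM BMDM and 4.20% ± 1.64 for GL261 BMDM. Most of that was Cd74 and the 3 classical chains. Across the 20 libraries the log2 levels of these 4 genes correlated at Pearson r of 0.99 or more, and each of them with Ciita at 0.92 to 0.96. H2-DMa, H2-DMb1 and H2-DMb2 correlated with the chains and Cd74 at 0.71 to 0.91. H2-Oa correlated with the chains and Cd74 at 0.12 to 0.23 and H2-Ob at -0.15 to -0.12, while the inhibitor genes correlated with each other at 0.63. Ciita correlated with the DM genes at 0.74 to 0.81, with H2-Oa at 0 and with H2-Ob at -0.08. These libraries fall into 6 groups and share their group means, so the values describe the groups more than single libraries.

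The first comparison asked how cells of bone marrow origin differ from microglia of the same tumours. The main fit did not pair them: MG and BMDM libraries of a tumour were taken as independent. A fit with the tumour as a block called the same members in each model with smaller SE (0.19 against 0.41 for H2-Aa in GEMM). In GEMM tumours 9 of the 10 genes were higher in BMDM (edgeR quasi-likelihood test, p adjusted by Benjamini-Hochberg across the 15363 tested genes, threshold 0.05), where 20.8% of all tested genes were called, 12.7% higher and 8.10% lower. The median log2 fold change was 3.37 over the 10 genes and 0.01 over all genes. Ciita was 21.1-fold higher (log2 4.40 ± 0.45 SE, adjusted p = 3.21e-06), H2-Eb1 14.5-fold, H2-DMb2 12.9-fold, H2-Ab1 12.2-fold, H2-Aa 11.7-fold and Cd74 9.18-fold, with adjusted p of 0.00016 or less. H2-DMb1 was 3.50-fold and H2-DMa 2.10-fold higher (adjusted p = 0.000123 and 0.00276). H2-Oa was higher by log2 1.78 ± 0.56 (adjusted p = 0.0313), a call lost when any library but BMDM 68702 was left out (adjusted p up to 0.142 in 5 of 6 such fits) or with no filter on low counts (0.081). H2-Ob had log2 1.21 ± 0.56 and missed the threshold (adjusted p = 0.142).

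In GL261 tumours 8 of the 10 genes were higher in BMDM, where 17.5% of all tested genes were called, 10.7% higher and 6.81% lower. The median log2 fold change was 1.78 over the 10 genes and -0.08 over all genes. H2-DMb2 was 5.24-fold higher, H2-Ab1 5.08-fold, H2-Eb1 4.24-fold, Ciita 4.20-fold, H2-Aa 3.69-fold, H2-DMb1 3.21-fold and Cd74 3.18-fold, with adjusted p from 0.000198 to 0.00487. H2-DMa was 1.76-fold higher (log2 0.81 ± 0.23, adjusted p = 0.02). H2-Oa had log2 -0.90 ± 0.56 (adjusted p = 0.276) and H2-Ob -0.45 ± 0.57 (adjusted p = 0.617). In a fit without both libraries of tumour 80769, H2-DMa (0.66 ± 0.22, adjusted p = 0.0596) and H2-DMb2 (2.06 ± 0.69, adjusted p = 0.061) missed the threshold, the other 6 calls stood, and H2-Oa moved to -1.49 ± 0.58 (adjusted p = 0.11). Leaving out BMDM 80766, MG 80767 or MG 80769 each ended the H2-DMa call too, at 0.64, 0.79 and 0.58. With only the 2 GL261 groups in the fit, which leaves fewer libraries to estimate the spread, 4 calls were lost at nearly the same log2 values: Ciita (2.09, adjusted p = 0.0503), H2-DMb1 (1.70, 0.0619), Cd74 (1.68, 0.0655) and H2-DMa (0.83, 0.178).

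Within single tumours the BMDM to MG ratio was larger in GEMM for the chains. For H2-Aa the ratio of CPM was 9.89, 9.77 and 16.4 in the GEMM tumours and 3.45, 2.88 and 2.55 in the GL261 tumours. For Cd74 it was 8.03, 7.91 and 12.1 against 2.91, 2.58 and 2.13, and for Ciita 24.4, 15.5 and 30.7 against 3.81, 2.90 and 3.34. Tumour ratios of the models did not overlap for 7 of the 10 genes, H2-DMa, H2-DMb1 and H2-Ob being the exceptions, with GEMM above GL261 in all 7. Of the 13080 genes with counts in all 12 tumour libraries, 34.4% had ratios without overlap, 29.0% with GEMM above and 5.42% with GEMM below, so non-overlap in that direction was common. These ratios use CPM without TMM scaling. The inhibitor genes varied in direction. H2-Oa was higher in BMDM than in MG in all 3 GEMM tumours (2.73, 4.69 and 2.91 times) and in GL261 tumour 80769 (1.67) but not in 80766 and 80767 (0.373 and 0.220). H2-Ob had the same directions, with ratios of 1.28, 3.58 and 2.47 in GEMM and 0.560, 0.303 and 2.04 in GL261.

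**Figure D2:**
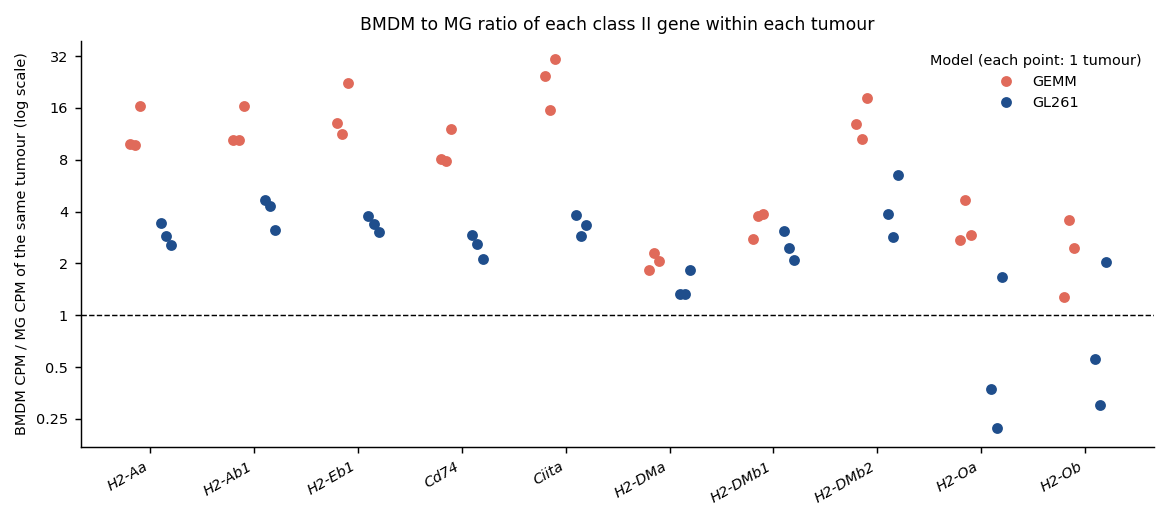
Ratio of BMDM CPM to MG CPM within each tumour (log scale) for the 10 genes; each point is 1 of 3 tumours per model and the dashed line marks equal levels. GEMM points lie above all GL261 points for the chains, Cd74, Ciita, H2-DMb2 and H2-Oa.

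Tested as an interaction, the difference between BMDM and MG was smaller in GL261 for 1 of the 10 genes, Ciita (log2 -2.33 ± 0.56, that is 5.02-fold smaller, adjusted p = 0.0428), where 1.63% of all tested genes were called, 1.02% lower and 0.605% higher. The median was -1.59 over the 10 genes and -0.06 over all genes. The other 9 had adjusted p from 0.0935 (H2-Oa, -2.68 ± 0.79) to 0.93 (H2-DMb1, -0.12 ± 0.37), with H2-Eb1 at -1.78 ± 0.53, H2-Aa at -1.66 ± 0.53, Cd74 at -1.53 ± 0.51 and H2-Ab1 at -1.26 ± 0.48. With the tumour as a replicate block, 5 genes had a lower interaction: Ciita (-2.46 ± 0.24, adjusted p = 0.0123), H2-Eb1 (-1.84 ± 0.26, 0.0212), H2-Aa (-1.70 ± 0.24, 0.0217), Cd74 (-1.57 ± 0.24, 0.0261) and H2-Ab1 (-1.32 ± 0.25, 0.0456). Without the block the Ciita call was lost in 8 of 12 fits that left out a library, namely BMDM BB30101, BB30105, 80767 or 80769 or MG 68702, BB30105, 80766 or 80767, with log2 values from -2.44 to -1.93 and adjusted p up to 0.134. It was also lost with no filter on low counts (-2.37, adjusted p = 0.0832) and with only the 4 tumour groups in the fit (-2.34, 0.17). Without both libraries of tumour 80769 it was -2.34 ± 0.60 (adjusted p = 0.0664), and H2-Oa passed instead (-3.27 ± 0.75, adjusted p = 0.0411).

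Dendritic cell markers differed between the same groups. Their sum over 12 genes was 639, 1632 and 1931 CPM in BMDM of GEMM and 226, 196 and 700.5 CPM in those of GL261. MG of these tumours held 94.4 to 151 CPM (GEMM) and 143 to 237 CPM (GL261), normal MG 183 to 205 CPM and monocytes 183 to 296 CPM. Ccr7, a receptor of migrating dendritic cells, was at 134 to 543 CPM in GEMM BMDM and 50.4 to 349 in GL261 BMDM. By its means, Fscn1 of the same list was no higher in BMDM than in MG. These means were 67.0 against 67.8 CPM (GEMM) and 68.1 against 129 CPM (GL261). With a mean of 159 CPM, Fscn1 made up most of the normal MG sum, and it was the largest part of both tumour MG sums. Within GEMM BMDM, library 68702 was lowest in both the sum and all 10 class II genes. That library stood apart in other sums too. Its neutrophil markers (6 genes) were at 1808 CPM, most of it Retnlg (1469 CPM), against 238 and 187 in BB30101 and BB30105. Its microglia sum was the highest of GEMM BMDM (5646 CPM) and its monocyte sum the lowest (612 CPM). Within GL261 BMDM the dendritic cell sum was highest in 80769, the library lowest in Cd74, Ciita, H2-DMa, H2-DMb1 and the 3 classical chains. Border-associated macrophage markers (8 genes) summed to 36.7 to 84.0 CPM in GEMM MG and 96.9, 51.4 and 944 CPM in GL261 MG, the last being 80769. GEMM BMDM held 268 to 359 CPM of them and GL261 BMDM 682, 713 and 3639 CPM, again highest in 80769. Monocytes held 1990 to 2304 CPM, most of it F13a1 (mean 1831 CPM). The part of these cell types in the class II levels was not tested.

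Microglia of tumours were then compared with microglia of normal brain. In GEMM MG 7 of the 10 genes were higher, where 43.8% of all tested genes were called, 23.0% higher and 20.9% lower, and the median log2 fold change was 2.63 against -0.02 over all genes. H2-Aa was 74.9-fold higher (6.23 ± 0.47, adjusted p = 3.87e-08), H2-Eb1 69.8-fold, H2-Ab1 41.3-fold, Cd74 30.6-fold and Ciita 18.2-fold (adjusted p up to 3.68e-06). The exchange factor changed much less, H2-DMa 2.10-fold (adjusted p = 0.00111) and H2-DMb1 1.90-fold (adjusted p = 0.00866). H2-DMb2 (0.74 ± 0.53), H2-Oa (0.68 ± 0.55) and H2-Ob (-0.12 ± 0.56) missed the threshold, with adjusted p of 0.271, 0.331 and 0.88. Monocyte markers (8 genes) summed to 11.1 to 18.2 CPM in normal MG and 102 to 228 CPM in GEMM MG, beside 612 to 1284 CPM in GEMM BMDM. Most of the GEMM MG sum was Fn1 (mean 135 CPM, against 3.46 in normal MG). Ccr2 was at 8.17 CPM in normal MG and 11.5 in GEMM MG, and Plac8 at 0.669 and 11.1. The part of monocytes in these differences was not tested.

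In GL261 MG 7 of the 10 genes were higher than in normal MG and 1 was lower, where 57.8% of all tested genes were called, 30.6% higher and 27.2% lower, and the median was 3.46 against 0.01 over all genes. H2-Aa was 171-fold higher (7.42 ± 0.50, adjusted p = 4.82e-09), H2-Eb1 168-fold, H2-Ab1 104-fold, Cd74 72.2-fold and Ciita 47.5-fold (adjusted p up to 1.17e-07). H2-DMb1 was 2.54-fold and H2-DMa 1.84-fold higher (adjusted p = 0.00033 and 0.00324). H2-Ob was lower by 2.97-fold (-1.57 ± 0.57, adjusted p = 0.0258), a call that rested on the MG of tumour 80769: without it the value was -1.13 (adjusted p = 0.111). H2-Oa (0.56 ± 0.55) and H2-DMb2 (0.72 ± 0.53) missed the threshold. Monocyte markers in GL261 MG (646, 625 and 6996 CPM) were above those of normal MG too, and their part was not tested. Both comparisons share the normal MG libraries, so their values are not independent.

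BMDM were compared with blood monocytes as the circulating state, a contrast that also differs in tissue, sex markers and depth. In GEMM BMDM all 10 genes were higher, where 57.3% of all tested genes were called, 31.6% higher and 25.7% lower, and the median was 2.35 against 0.08 over all genes (0.107 lower with another scaling). H2-Oa had the largest fold, 20.6 (4.37 ± 0.53, adjusted p = 2.04e-06), from the 5.75 ± 5.14 CPM of monocytes. H2-Eb1 was 11.9-fold, H2-Ab1 8.46-fold, H2-DMb2 7.71-fold, H2-Aa 6.59-fold, Cd74 3.94-fold, H2-Ob 3.25-fold, H2-DMb1 3.01-fold, Ciita 2.57-fold and H2-DMa 2.42-fold higher, with adjusted p from 9.77e-08 to 0.00685 (H2-Ob).

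In GL261 BMDM 8 of the 10 genes were higher than in monocytes and 1 was lower, where 63.0% of all tested genes were called, 34.1% higher and 28.9% lower, and the median was 1.66 against 0.06 over all genes. H2-Ab1 was 8.87-fold, H2-Eb1 8.35-fold, H2-Aa 4.76-fold, H2-DMb1 3.70-fold, Cd74 3.22-fold, H2-DMb2 3.10-fold, H2-Oa 2.96-fold and H2-DMa 1.77-fold higher, with adjusted p from 9.5e-08 to 0.0146 (H2-Oa). Ciita had log2 0.41 ± 0.34 (adjusted p = 0.308), so the chains stood several-fold above monocytes where a difference in the regulator was not shown. H2-Ob was lower (-1.41 ± 0.54, adjusted p = 0.03), but not without monocyte library 64817, which held the most B cell markers (-0.77, adjusted p = 0.14), nor without BMDM 80767 (-1.16, 0.119) or BMDM 80769 (-1.43, 0.0739). The H2-Oa call was lost without BMDM 80769 (1.42, adjusted p = 0.0531) and without monocytes 64820 and 64821 together (1.15, adjusted p = 0.0727), the fit that leaves out the libraries rich in Rn45s.

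**Figure D3:**
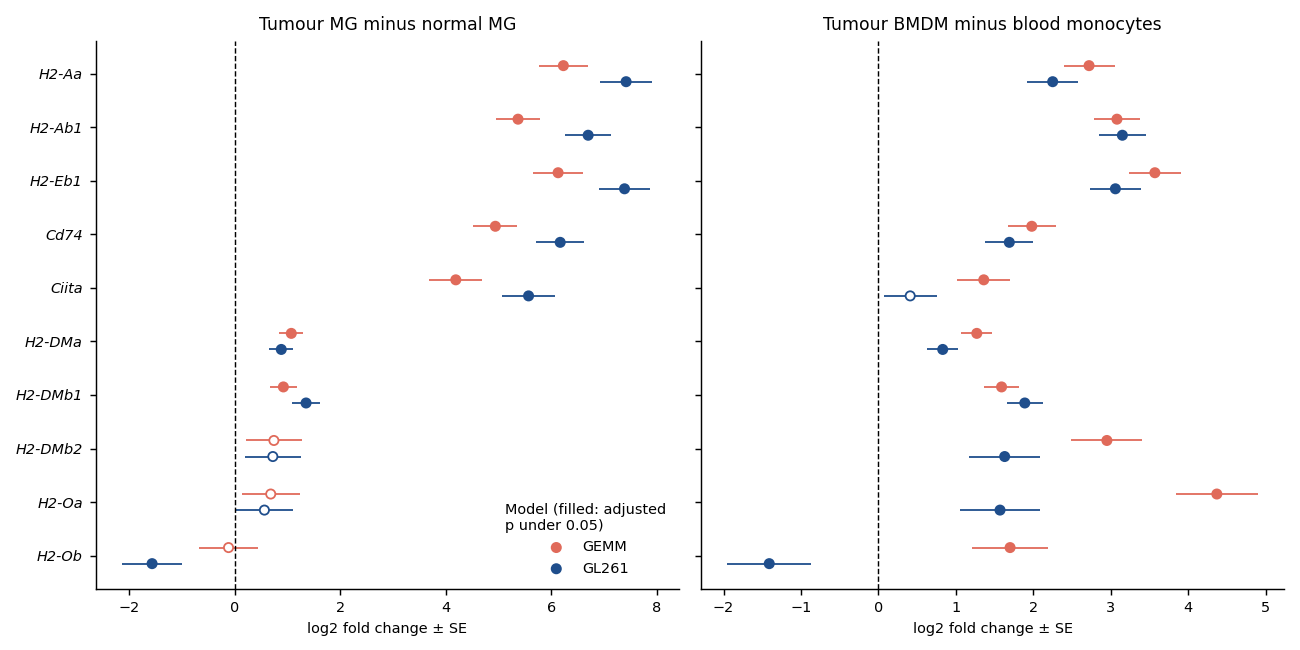
Log2 fold changes with SE of the 10 genes, tumour MG against normal MG (left) and tumour BMDM against blood monocytes (right), for GEMM and GL261; filled points have an adjusted p under 0.05. In MG the chains, Cd74 and Ciita lie at 4.19 to 7.42 and the DM and O genes at 1.35 or less, whereas in BMDM the points of the chains and of the DM genes lie closer together.

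The models were compared directly within each cell type. In MG 5 of the 10 genes were higher in GL261 than in GEMM, where 34.3% of all tested genes were called, 18.8% higher and 15.5% lower: Ciita (2.60-fold, adjusted p = 0.0128), H2-Ab1 (2.52-fold, 0.00619), H2-Eb1 (2.41-fold, 0.0149), Cd74 (2.36-fold, 0.0135) and H2-Aa (2.28-fold, 0.0215). The median was 0.80 over the 10 genes and 0.04 over all genes. None of the 5 was called without GEMM MG 68702 (log2 0.92 to 1.05, adjusted p 0.0591 to 0.136), and H2-Ab1 alone was called without GEMM MG BB30105 or without GL261 MG 80766. The H2-Aa call was lost without GL261 MG 80767 as well (1.14, adjusted p = 0.0523). H2-DMa (-0.19 ± 0.23), H2-DMb1 (0.42 ± 0.26), H2-DMb2 (-0.01 ± 0.52) and H2-Oa (-0.12 ± 0.55) had adjusted p of 0.227 or more, and H2-Ob missed the threshold at -1.45 ± 0.57 (adjusted p = 0.058). Marker sums moved with this comparison: monocyte markers were at 102 to 228 CPM in GEMM MG and 625 to 6996 CPM in GL261 MG, and markers of oligodendrocyte precursors or glioma cells (6 genes, none at 0 in either group) at 139 to 226 CPM and 533 to 1153 CPM. Their part in the class II difference was not tested.

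In BMDM the 2 genes called between the models were the inhibitor genes. H2-Ob was 8.63-fold lower in GL261 than in GEMM (-3.11 ± 0.61, adjusted p = 0.00173) and H2-Oa 6.96-fold lower (-2.80 ± 0.59, adjusted p = 0.00288), 2 of the 10 genes, where 19.7% of all tested genes were called, 9.46% lower and 10.2% higher. Ranges of the models did not overlap for either gene, and both calls stood without both libraries of tumour 80769 (-3.14 ± 0.65 and -2.96 ± 0.58) and in all fits that left out a library. The median was -0.49 over the 10 genes and -0.04 over all genes. The chains, Cd74, Ciita and the DM genes missed the threshold, from 0.30 ± 0.26 (H2-DMb1) to -1.31 ± 0.52 (H2-DMb2, adjusted p = 0.0813), and without GL261 BMDM 80766 Ciita was lower too (-1.45, adjusted p = 0.0244). Summed B cell markers, a cell type known for H2-O, were at 79.9 to 168 CPM in GEMM BMDM and 55.8 to 113 CPM in GL261 BMDM, and the dendritic cell sums given above were higher in 2 of 3 GEMM libraries than in any GL261 library. The part of both cell types in the difference was not tested.

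Set against each other, H2-DM and H2-O gave a ratio that parted the BMDM of the models. Levels per kilobase were summed over H2-DMa, H2-DMb1 and H2-DMb2 and divided by the sum over H2-Oa and H2-Ob. The ratio was 3.83, 4.17 and 3.89 in normal MG and 5.86, 7.07 and 4.81 in GEMM MG. GEMM BMDM stayed in that range at 6.85, 5.62 and 5.93, since both sums were higher than in MG. GL261 MG had 8.30, 5.91 and 19.96 and GL261 BMDM 52.5, 53.7 and 25.2, the GL261 BMDM lying above all GEMM BMDM and the GL261 MG overlapping them. Monocytes ranged from 8.91 in library 64817 to 67.1 in 64820. The lengths are of all annotated exons, so the ratio depends on the annotation.

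**Figure D4:**
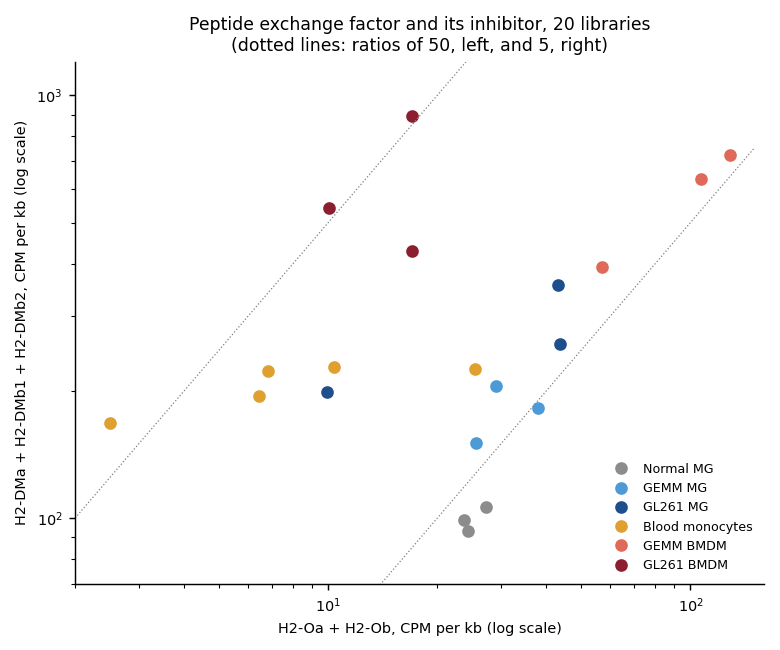
Summed level of the H2-DM genes (y axis) against that of the H2-O genes (x axis), both CPM per kilobase on log scales, one point per library. GEMM BMDM lie near the line for a ratio of 5 and GL261 BMDM near the line for 50, at 25.2 to 53.7.

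The chain level beside each unit of Ciita also differed between groups. H2-Aa per Ciita, both per kilobase, was 24.9 to 33.6 in monocytes and 20.6 to 45.6 in normal MG. It was 75.1 to 79.4 in GEMM BMDM, 91.5 to 156 in GL261 BMDM, 123 to 186 in GEMM MG and 101 to 157 in GL261 MG. Monocytes thus held Ciita at the level of GL261 BMDM libraries 80767 and 80769 with H2-Aa at less than the level of either. These are ratios of message levels, described without a test.

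**Figure D5:**
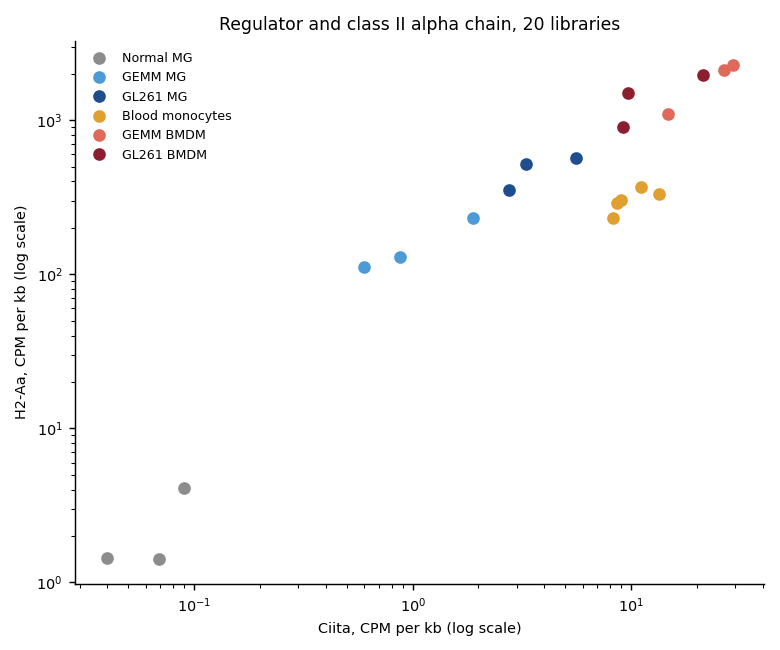
H2-Aa against Ciita in CPM per kilobase (log scales), one point per library. Tumour libraries and normal MG climb together, and the 5 monocyte libraries lie to the right of the GL261 MG at like or lower H2-Aa.

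Genes upstream of Ciita and around it were read from lists. Of 10 partners on class II promoters (RFX, NF-Y, Creb1 and acetyltransferases), none was higher in tumour MG than in normal MG. In GEMM MG 8 were lower and in GL261 MG 5, where 20.9% and 27.2% of all tested genes were lower. Creb1, a factor of the X2 box, went from 99.95 ± 1.25 CPM in normal MG to 40.0 ± 5.66 in GEMM MG and 36.5 ± 4.56 in GL261 MG (log2 -1.19 and -1.76, adjusted p = 1.36e-06 and 1.09e-08). Rfx5, of the RFX complex, was lower in GL261 MG (21.1 ± 1.95 CPM against 35.2 ± 1.15, adjusted p = 0.000228). In BMDM against MG, 1 of these 10 was higher in GEMM (Kat2b, 0.64 ± 0.20, adjusted p = 0.0328), and in GL261 the edgeR fit called 0 of the 10, with 0 at an unadjusted p under 0.05. The share of all tested genes higher in BMDM than in MG was 12.7% in GEMM and 10.7% in GL261. Against monocytes 6 of the 10 were lower in the BMDM of each model and none was higher. There 25.7% (GEMM) and 28.9% (GL261) of all tested genes were lower.

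Of 13 genes of the interferon-gamma signal, 2 were higher and 6 lower in GEMM MG than in normal MG, and 2 were higher and 8 lower in GL261 MG. Among all tested genes 23.0% were higher and 20.9% lower in GEMM MG, and 30.6% and 27.2% in GL261 MG. Ifngr1, a receptor chain, was lower in MG of both models (476 ± 47.9 CPM in GEMM and 337 ± 129 in GL261 against 1545 ± 191, adjusted p = 3.23e-05 and 1.6e-07). Ifng itself, made chiefly by T and NK cells, had 0 counts in normal and GEMM MG and 0.976 ± 0.781 CPM in GEMM BMDM, at least 27.5-fold above the 3 counts over the GEMM MG group used as a floor. In GL261 it was at 4.45 ± 5.36 CPM in BMDM and 0.988 ± 0.821 CPM in MG, a difference that missed the threshold (2.45 ± 1.15, adjusted p = 0.16). T cell markers (8 genes) summed to 28.9 to 75.5 CPM in GEMM BMDM and 2.21 to 10.4 CPM in GEMM MG, and their part in the Ifng counts was not tested.

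In BMDM against MG, 3 of the 13 were higher in each model and none was lower, where 12.7% (GEMM) and 10.7% (GL261) of all tested genes were higher. Jak2, a kinase of the receptor, was higher in both (2.51 ± 0.34 in GEMM, adjusted p = 5.49e-05, and 1.53 ± 0.33 in GL261, adjusted p = 0.00389). Irf4, a factor of dendritic cells and B cells, had 35.2 ± 13.9 CPM in BMDM of GEMM against 2.04 ± 0.842 CPM in their MG (4.08 ± 0.45, adjusted p = 6.45e-06), and at 3.60 ± 2.62 and 1.68 ± 0.634 CPM in GL261 (1.43 ± 0.45, adjusted p = 0.0353). Its interaction was -2.65 ± 0.62 (adjusted p = 0.0375). Irf4 was also lower in GL261 BMDM than in GEMM BMDM (-3.38 ± 0.43, adjusted p = 5.11e-05), as were H2-Oa and H2-Ob. Against monocytes, 2 of the 13 were higher and 6 lower in BMDM of each model, among them Irf4 (72.8 ± 13.9 CPM in monocytes), called lower in both. There 31.6% of all tested genes were higher and 25.7% lower in GEMM, and 34.1% and 28.9% in GL261.

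Proteases and other genes that cut the invariant chain and antigens formed a list of 10. In GEMM MG 7 were higher than in normal MG and 1 was lower, where 23.0% of all tested genes were higher and 20.9% lower. Ctsz rose from 1319.9 ± 73.3 to 4703 ± 621 CPM (1.97 ± 0.17, adjusted p = 1.09e-07), Ctsb from 3803 ± 92.7 to 17728 ± 980.3, and Ifi30, a thiol reductase, from 40.1 ± 6.76 to 247 ± 92.9. In GL261 MG 3 were higher and 2 lower, near the shares of all tested genes (30.6% higher and 27.2% lower). Cst3, an inhibitor of cathepsins, was at 4335 ± 2001 CPM against 26484 ± 1884 (-2.91 ± 0.32, adjusted p = 7.63e-07). In BMDM against monocytes 9 were higher and 1 lower in GEMM, and 8 higher and 1 lower in GL261. There 31.6% (GEMM) and 34.1% (GL261) of all tested genes were higher. Lgmn, an endopeptidase, had 149 ± 14.7 CPM in monocytes against 3232 ± 193 (GEMM) and 2966 ± 242 (GL261) in BMDM.

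In BMDM against MG, unlike the class II genes, this list had 4 lower and 1 higher members in GEMM and 2 lower and 2 higher in GL261. Among all tested genes 8.10% were lower and 12.7% higher in GEMM, and 6.81% and 10.7% in GL261. Ctsl, which cuts the invariant chain in thymic epithelium and some macrophages, had 438 ± 88.2 CPM in BMDM of GEMM against 2120.4 ± 138 CPM in their MG (-2.28 ± 0.42, adjusted p = 0.000841). In GL261 it was at 1382 ± 1286 and 1273 ± 324 CPM (0.45 ± 0.40, adjusted p = 0.468), and the interaction was 2.73 ± 0.58 (adjusted p = 0.0235). Ctsz had an interaction of 1.28 ± 0.23 (adjusted p = 0.00892). GL261 MG had 9 of the 10 lower than GEMM MG and none higher, where 15.5% of all tested genes were lower and 18.8% higher. This direction was opposite to that of the chains in the same comparison, with Ctsd at 14545 ± 5904 against 43573 ± 2213 CPM (adjusted p = 0.000306).

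The smaller lists held the turnover genes, costimulators and other class II genes. Of 3 turnover genes, March1, a ligase that removes class II from the surface, was lower in tumour MG (76.5 ± 16.1 CPM in GEMM and 73.1 ± 27.4 in GL261 against 265 ± 32.8 in normal MG, adjusted p = 0.00191 and 0.000134). Cd83, which opposes that ligase, was higher in GEMM MG (3679 ± 645 against 1502 ± 309.6 CPM, adjusted p = 0.00448) and lower in GL261 MG than in GEMM MG (1278 ± 689 CPM, adjusted p = 0.000746).

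Of 4 costimulators, 2 were higher in BMDM than in MG of each model and none was lower, where 12.7% (GEMM) and 10.7% (GL261) of all tested genes were higher. Cd40 had 69.4 ± 22.0 CPM in BMDM of GEMM against 9.56 ± 3.31 CPM in their MG (2.85 ± 0.27, adjusted p = 2.11e-06), at 96.5 ± 13.7 and 33.6 ± 8.51 in GL261 (1.81 ± 0.26, adjusted p = 0.00012), and at 0.339 ± 0.155 in normal MG. Cd86 was lower in GL261 MG than in normal MG, at 351 ± 171 against 582 ± 72.2 CPM (-1.02 ± 0.29, adjusted p = 0.00564). H2-Eb2, a further class II beta gene, had 0 counts in all normal MG libraries and 1.78 ± 0.355 CPM in GL261 MG, at least 50.4-fold above the floor of 3 counts over that group, and 0.301 ± 0.231 CPM in GEMM MG, at least 8.51-fold above it (adjusted p = 2.54e-05 and 0.0011).

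Over the 20 libraries, the genes, of 15353 others, whose log2 level was most like the mean of the 10 standardised class II genes included Klrb1b (r = 0.95), Gpr171 and Prss30 (0.94 each), Gm6377, Trim25 and Bhlhe40 (0.93 each) and Il1r2 (0.92). Over the 6 group means their r was 0.94 to 0.99. Mean CPM of Gpr171 came to 278 and 267 for BMDM of GEMM and GL261, 10.7 and 12.7 for their MG, 6.39 for monocytes and 0.238 for normal MG, an order close to that of H2-Aa.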

How the data were processed

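Raw counts per gene symbol were deposited by the authors in 1 table of 20 libraries; they are whole numbers with unequal totals. The build mm10 and, with no role stated, HTSeq, STAR 2.5.0e, CASAVA 1.8 and DESeq2 appear in the submitters' processing notes; the sources used here give neither strand setting nor annotation. Reads of near-identical or overlapping genes can be split or lost. Groups came from sample titles. The genes and lists were chosen with earlier results of these data known. A few genes of the lists are not reported here by name.

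Counts were filtered (filterByExpr, minimum count 10, minimum total 15; 15363 genes kept of 21798 with a count), scaled by TMM and fitted with edgeR 4.0.16 (R 4.3.3; quasi-likelihood, robust, all 6 groups), with Benjamini-Hochberg adjustment over all genes and calls at 0.05. This fit did not pair MG and BMDM of a tumour. CPM used deposited totals. The code was tested on simulated data. All 10 members were named, and from each list up to 3 called genes of smallest p; Ifng, Ctsz, Ctsl, Irf4, Gpr171, Chi3l3, BC051537, Xist, Ddx3y and single markers were also chosen after their values were seen. Coordinates are GENCODE (GRCm38) and promoters RefSeq GRCm38.p6. Alternatives used DESeq2 1.42.0, other size factors (RLE), no filter, only the groups compared, H2-DMb1 and H2-DMb2 summed, Rn45s removed, a replicate block, and left-out libraries.

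The series states that MG and BMDM are matched by tumour, and same-numbered libraries deviated together from their group means (r = 0.32, 0.22 and 0.20 in GEMM, 0.39, 0.22 and 0.39 in GL261, over genes), so the numbers were taken to pair them. Numbers were taken as animals; if they are not, the p-values cover spread among libraries alone, which may be technical. Totals of 5077787 to 36297826 counts set the counting error.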

Additional observations from a re-analysis of the deposited data

Results flagged for a closer look

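Among the genes described, 4 differed between the models in their BMDM to MG difference, by the interaction test: Ciita at log2 -2.33, Irf4 at -2.65, Ctsz at 1.28 and Ctsl at 2.73 (GL261 minus GEMM). They were 1 of the 10 members, 1 of 13 interferon-gamma genes and 2 of 10 protease genes, where 1.63% of all tested genes were called. The Ciita call was lost in 8 of 12 fits that left out a library. It was also lost with no filter (adjusted p = 0.0832) and with only the groups compared (0.17). For Ciita the within-tumour ratios of BMDM to MG were 15.5 to 30.7 in GEMM and 2.90 to 3.81 in GL261. For Irf4 they were 11.4, 13.7 and 31.5 in GEMM and 1.72, 0.618 and 6.20 in GL261. Ctsz had 0.510, 0.480 and 0.456 in GEMM and 0.828, 1.03 and 1.07 in GL261. Ctsl had 0.148, 0.237 and 0.241 in GEMM and 0.522, 0.644 and 1.75 in GL261, the last in tumour 80769. The 5 monocyte libraries were examined for outlying values in 29 sets, of which 0 stood out, where chance would give about 1 in 20.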

How the results depend on the processing

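Over the alternatives run, 1125 of 1211 values of single members kept their direction and side of the threshold. The GEMM BMDM against monocytes comparison kept all 10 calls in each. Members with a lower interaction (1 in the fit reported) numbered 5 with the replicate block, 4 with DESeq2, 0 with no filter, 0 with only the groups compared, and 0 to 2 with a library left out. The block changed no other call. With only the groups compared, GL261 BMDM against MG had 4 higher and GL261 MG against GEMM MG 3. DESeq2 gave the latter 1 lower, H2-Ob. Single lower calls fell to 0 with no filter in GL261 MG against normal MG and in GL261 BMDM against monocytes, and the former also without tumour 80769. With a library left out, counts ranged from 0 to 5 higher and 0 to 1 lower in GL261 MG against GEMM MG, and from 0 to 1 lower in the other 2. Uncalled values changed sign with a library left out: Ciita (-0.12 to 0.63) in GL261 BMDM against monocytes; H2-Ab1 (-0.26 to 0.31) and H2-DMb1 (-0.12 to 0.50) in BMDM of the models; H2-DMa (-0.54 to 0.04), H2-DMb2 (-0.43 to 0.52) and H2-Oa (-0.43 to 0.31) in MG of the models; H2-Ob (-0.22 to 0.03) in GEMM MG against normal MG; H2-DMa (-0.49 to 0.03) and H2-DMb1 (-0.46 to 0.13) in the interaction. Without tumour 80769, H2-DMa (0.04), H2-DMb2 (0.17) and H2-Oa (0.32) did so in MG of the models. The causes were not tested. Over all genes, lower calls in GL261 BMDM against MG went from 1046 to 1768 with DESeq2 and 234 with only the groups compared (higher, 1646 to 599), lower calls in GEMM from 1245 to 1918 with DESeq2, lower calls between BMDM of the models from 1454 to 707, and interactions from 93 higher and 157 lower to 373 and 435 with DESeq2, 7 and 14 with only the groups compared, and 43 higher with no filter. Depth limits Ciita in normal MG (10 counts in the lowest library) and H2-Oa in monocytes (4 counts).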
